A study of Mus musculus with 2 samples.

Results

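The genes described here are 59 components of Wnt signalling, listed by symbol and looked up among the 43346 annotated genes measured in mouse neural tube. They comprise 16 secreted ligands and R-spondins, 17 receptors and co-receptors, 8 secreted inhibitors, 11 intracellular parts and targets, and 7 planar polarity genes. The list was drawn up by pathway membership and not by level. All 59 were found in the tables.

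Wnt proteins are lipid-modified secreted signals that bind Frizzled receptors. With an Lrp co-receptor they stop the Axin, Apc and Gsk3 complex from destroying β-catenin, which then enters the nucleus and activates genes together with Tcf and Lef factors. Through Ror, Ryk, Vangl and Celsr proteins they act without β-catenin on cell polarity, and in the developing spinal cord they also guide growing axons.

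RNA came from the neural tube of healthy B6NCrl embryos at 15.5 days, with male and female embryos pooled. Replicate 1 was a pool of 78 embryos and replicate 2 a pool of 62, and these 2 libraries formed a single group with no treatment or mutant, so nothing could be compared between conditions. No promoter, transgene or deletion was involved. What limits the samples is that each is a pool of whole dissected tissue, in which embryos, regions and cell types cannot be separated, and in which fewer cells of a type and less RNA per cell cannot be told apart. Levels are given in TPM (a transcript abundance scaled by length and library size) for replicate 1 and then replicate 2.

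Annotated genes received 34678043 expected counts in replicate 1 and 41355355 in replicate 2, and 3 counts corresponded to 0.0593 and 0.0497 TPM for Wnt1, counting error only. Of the markers for the labelled tissue, 8 of 8 for neurons and 8 of 8 for progenitors and radial glia were at 1 TPM or more in both libraries. Replicate 1 also held RNA of other organs: 10 thymocyte markers summed to 301 TPM in replicate 1 and 9.67 TPM in replicate 2, and 8 thymic epithelium markers to 866 and 17.4 TPM. The highest of these 8 were the keratins Krt8 (266 and 1.97 TPM) and Krt18 (254 and 1.57 TPM), then Prss16 (136 and 0.07 TPM). Foxn1, a defining gene, was at 9.69 TPM and listed at 0 (named after its values were seen). Gut and simple epithelium markers (8 genes) summed to 106 and 2.54 TPM, and 6 smooth muscle markers to 353 and 34.8 TPM. Every member of these 4 lists was higher in replicate 1, but the lists were chosen with earlier results of these data known. Both libraries held RNA of meninges and mesenchyme, whose 8 markers summed to 1122 and 873 TPM. Of these 8, 7 were at 1 TPM or more in both libraries, and 5 were higher and 3 lower in replicate 1. The part of such tissue in the levels of the members was not tested. Neuronal markers summed to 3726 TPM in replicate 1 and 4508 TPM in replicate 2, and all 8 were lower in replicate 1.

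The sequences that bear on the transcript results are shown here because they are what separates the transcripts compared further on. Lef1 transcripts differ by an alternative exon of 84 bases, or 28 codons, at chr3:131191023-131191106, and by which last coding exon they use. Those of Lef1-201 and Lef1-204 lie at chr3:131204933-131204964 and chr3:131223076-131223152 (GRCm38, plus strand, coding bases without the stop codon).
Lef1 alternative exon: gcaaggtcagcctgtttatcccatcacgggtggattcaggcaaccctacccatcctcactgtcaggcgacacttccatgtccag
Lef1-201 last coding exon: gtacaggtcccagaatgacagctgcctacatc
Lef1-204 last coding exon: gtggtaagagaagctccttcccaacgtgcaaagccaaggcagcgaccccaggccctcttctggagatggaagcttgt
The alternative exon is a whole number of codons, so its inclusion or skipping keeps the reading frame.

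Wnt5a is annotated with alternative start sites 6.655 kb apart on chromosome 14. The coding sequence of Wnt5a-201 begins 60 bases, or 20 codons, ahead of the start codon of Wnt5a-202, which is in capitals below. The stretch joins 2 exons and spans chr14:28506109-28511879 (GRCm38, plus strand).
Wnt5a-201 coding start: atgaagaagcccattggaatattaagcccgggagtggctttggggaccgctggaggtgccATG

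Of the 59 genes, 50 (84.7%) reached 1 TPM in both libraries, the level called detected here, against 35.8% of all annotated genes and 63.4% of protein-coding genes. Detected members were of modest abundance, with a median of 7.70 TPM against 16.5 TPM over all 15505 detected genes. Intracellular parts made up most of the RNA of the set. Their summed level was 498 TPM in replicate 1 and 469 TPM in replicate 2, or 53.5% and 52.6% of the sum over all members. The secreted inhibitors summed to 149 and 145 TPM, planar polarity genes to 113.6 and 113.0 TPM, receptors to 102 and 94.5 TPM, and ligands to 68.1 and 69.3 TPM. This order of the 5 roles was the same in both libraries, as the plot of levels shows gene by gene.

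**Figure D1:**
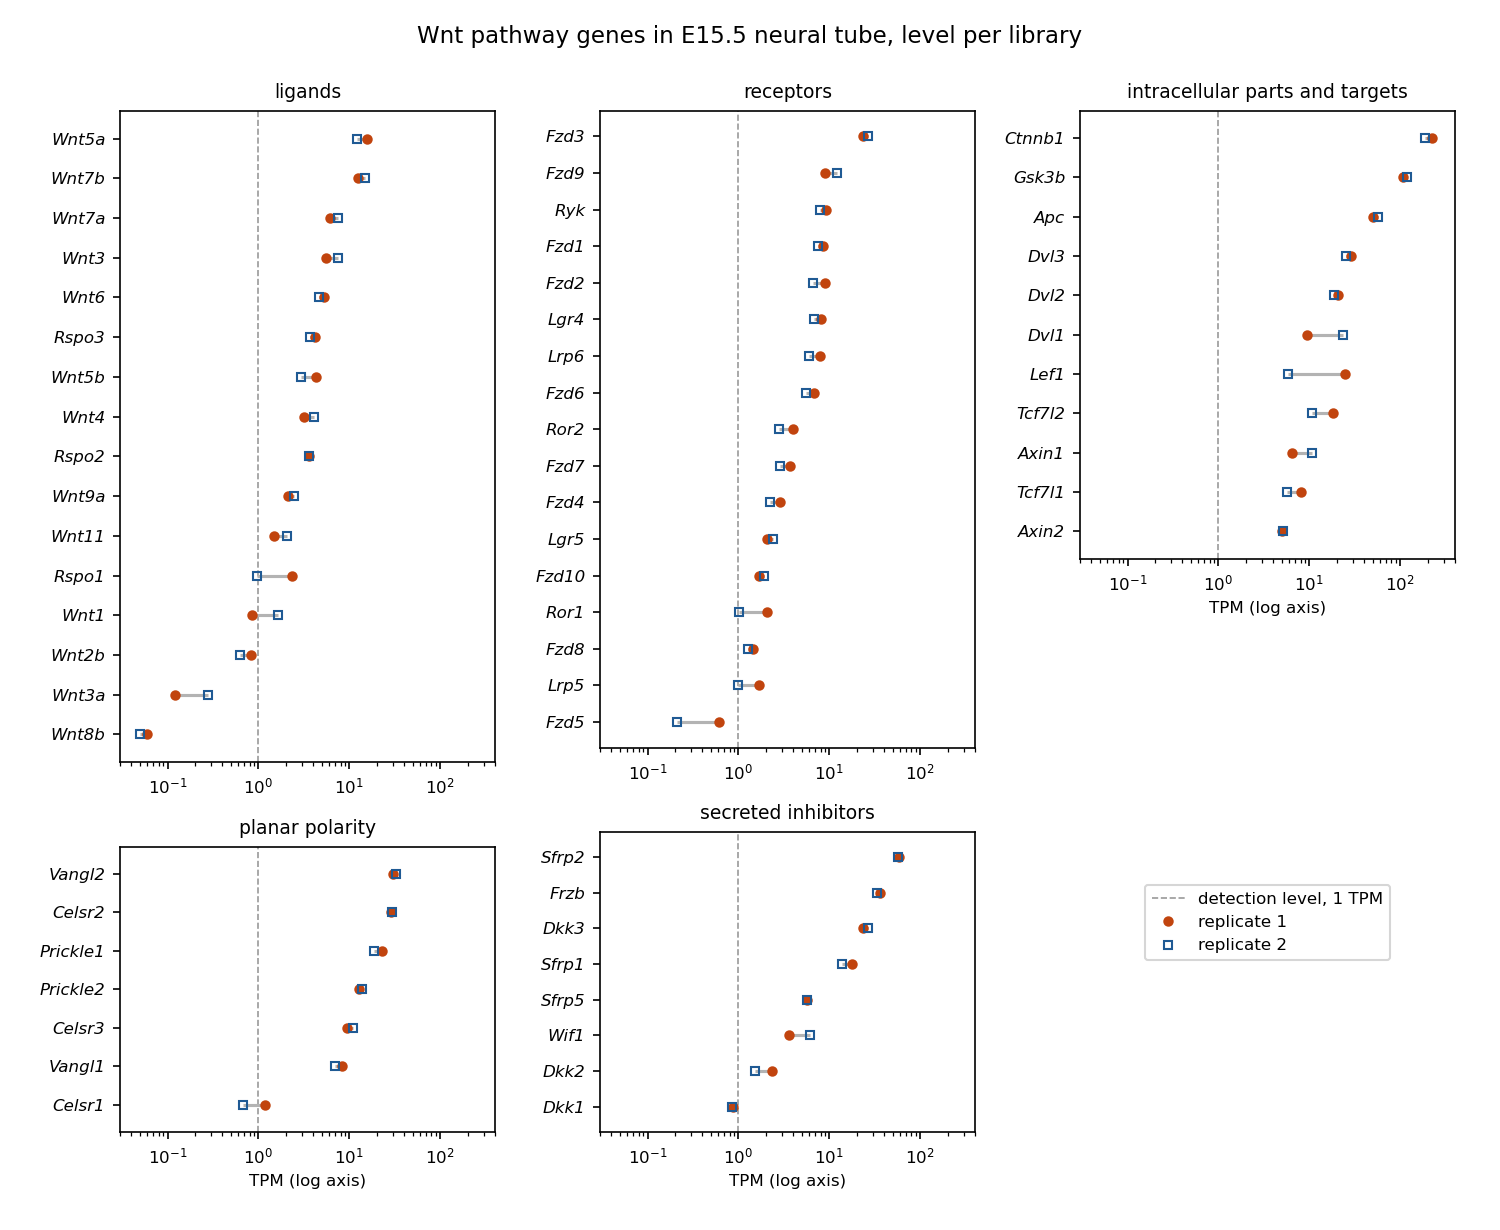
TPM of each member (log axis) in replicate 1 (filled circles) and replicate 2 (open squares), sorted by mean within each role, with a dashed line at 1 TPM and a grey line joining the libraries. Ctnnb1, at 221 and 189 TPM, is the highest point, and Lef1 and Dvl1 have the widest gaps among genes above 5 TPM.

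Among the ligands, Wnt5a and Wnt7b stood above the rest. Wnt5a, which signals mostly without β-catenin and guides axons, was at 15.7 and 12.3 TPM. Wnt7b, which neural cells release to the invading blood vessels, was at 12.4 and 15.0 TPM. Their order differed between the libraries, and together they supplied 48.4% and 44.7% of the summed level of the 13 Wnt genes.

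Wnt7a, the partner of Wnt7b in vessel ingrowth and barrier formation, was at 6.20 and 7.41 TPM. Its ratio to Wnt7b was close to the same in both pools, with a log2 ratio of -1.01 ± 0.01 (SD, n = 2). Wnt3, a β-catenin pathway ligand, was at 5.54 and 7.41 TPM, and Wnt6 at 5.22 and 4.65 TPM. The levels of Wnt7a, Wnt3 and Wnt6 were each below those of Wnt5a and Wnt7b in both libraries.

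Lower still were Wnt5b at 4.32 and 2.97 TPM, Wnt4, a ligand of the ventral spinal cord that attracts commissural axons, at 3.15 and 4.13 TPM, Wnt9a at 2.13 and 2.48 TPM, and Wnt11 at 1.49 and 2.07 TPM. Wnt5b and Wnt4 changed places between the libraries. Wnt5a exceeded its close relative Wnt5b by a log2 ratio of 1.95 ± 0.13 (SD, n = 2).

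The classic dorsal signals were scarce. Wnt1, which the roof plate and dorsal midline express, was at 0.85 and 1.64 TPM (43 and 99 expected counts), and so crossed 1 TPM in replicate 2 only. Wnt3a, its dorsal partner and a driver of progenitor division, was at 0.12 and 0.28 TPM, from 7 and 20 counts. Both were lower in replicate 1. The 8 roof plate markers summed to 40.6 and 53.2 TPM and were likewise lower in replicate 1 for 7 of the 8. Among them, Msx1 was at 6.42 and 12.6 TPM and Zic1 at 7.97 and 10.8 TPM. Lmx1a, a defining roof plate gene, was at 0.35 and 0.56 TPM, and Gdf7, another, was listed at 0 and at 0.12 TPM (both named after their values were seen). The part of roof plate content in the Wnt1 and Wnt3a levels was not tested.

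Wnt2b stood at 0.82 and 0.62 TPM. Wnt8b, a forebrain ligand, was at 0.06 and 0.05 TPM with 4 counts in each library, the lowest level of any member. Wnt3 exceeded Wnt3a by a log2 ratio of 5.13 ± 0.57 (SD, n = 2), and by 2.63 with 1 TPM added to each level. Of the 6 remaining mouse Wnt genes, which were not on the list, none was detected, which leaves 9 of 19.

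R-spondins raise Wnt responses by sparing Frizzled receptors from turnover through Lgr receptors. Rspo2 was at 3.58 and 3.63 TPM, Rspo3 at 4.24 and 3.72 TPM, and Rspo1 at 2.34 and 0.96 TPM. Rspo1 therefore missed 1 TPM in replicate 2 by a small margin. Rspo2 and Rspo3 made up 77.0% of the summed level of these 3 genes in replicate 1 and 88.4% in replicate 2. With Rspo4, not on the list, at 0.36 and 0.35 TPM (named after its values were seen), the shares were 74.3% and 84.9%.

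Several mouse Wnt genes lie side by side, and in each of the 4 neighbouring pairs within 100 kb the same gene was higher in both libraries. On chromosome 1, Wnt6 lies 6.193 kb from Wnt10a, which was at 0.16 and 0.07 TPM. On chromosome 11, Wnt3 lies 24.328 kb from Wnt9b, which was at 0.14 and 0.12 TPM. Also on chromosome 11, Wnt9a exceeded Wnt3a across a gap of 16.175 kb. On chromosome 15, Wnt1 lies 11.706 kb from Wnt10b, which was at 0.52 and 0.05 TPM and was named after its values were seen. The pair of Wnt1 and Wnt10b was low as a whole, whereas the other 3 pairs each had a detected gene beside one below 0.3 TPM.

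Fzd3 was the leading Frizzled. This receptor, needed for the growth and turning of long axon tracts, was at 23.7 and 26.4 TPM. Fzd9 followed at 9.02 and 12.2 TPM, and Fzd3 and Fzd9 together held 48.7% and 57.8% of the summed level of the 10 Frizzleds. That sum was 67.2 TPM in replicate 1 and 66.7 TPM in replicate 2.

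The receptor most like Fzd3 in sequence and role, Fzd6, was at 6.82 and 5.58 TPM, and Fzd3 exceeded it by a log2 ratio of 2.02 ± 0.31 (SD, n = 2). Fzd1 at 8.50 and 7.55 TPM and Fzd2 at 8.92 and 6.55 TPM could not be ordered, since their log2 ratio was 0.068 ± 0.19 (SD, n = 2). Fzd7, of the same subfamily as Fzd1 and Fzd2, was at 3.67 and 2.85 TPM. Fzd2 stood above Fzd7 by 1.24 ± 0.06 on the log2 scale (SD, n = 2).

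Fzd4, which receives norrin on endothelium, was at 2.84 and 2.22 TPM. Fzd10 was at 1.69 and 1.91 TPM, Fzd8 at 1.43 and 1.29 TPM, and Fzd5 at 0.61 and 0.21 TPM. Fzd5 was the only Frizzled not detected. Fzd8 exceeded it by a log2 ratio of 1.92 ± 0.98 (SD, n = 2), with 92 and 29 counts behind Fzd5.

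The co-receptors of the β-catenin branch were unequal. Lrp6 was at 7.98 and 5.93 TPM and Lrp5 at 1.70 and 0.99 TPM, and Lrp6 exceeded Lrp5 by a log2 ratio of 2.41 ± 0.25 (SD, n = 2). Lgr4, an R-spondin receptor of broad expression, was at 8.03 and 6.79 TPM. Lgr5, a stem cell marker in several epithelia and itself a Wnt target, was at 2.07 and 2.39 TPM. Lgr4 was thus the higher R-spondin receptor in both libraries, by a log2 ratio of 1.73 ± 0.32 (SD, n = 2).

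Receptors of the branch without β-catenin included Ryk, an axon repulsion receptor for Wnt5a, at 9.11 and 7.91 TPM. Ror2 was at 3.97 and 2.78 TPM and Ror1 at 2.05 and 1.01 TPM, both receptor kinases for Wnt5a. Each of the 3 was lower in replicate 2, as were 13 of the 17 receptors. The remaining 4, Fzd3, Fzd9, Fzd10 and Lgr5, were lower in replicate 1. Over all 59 members, 34 were lower in replicate 2, and the share over all genes was not counted. The median log2 ratio of TPM + 1, replicate 1 over replicate 2, was 0.21 for detected receptors and 0.01 over all detected genes.

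Secreted inhibitors were higher in sum than the ligands in both libraries. Sfrp2, which binds Wnts outside the cell, was at 58.4 and 57.4 TPM, and Frzb, of the same family, at 36.3 and 33.2 TPM. Sfrp1 was at 17.8 and 13.8 TPM and Sfrp5 at 5.61 and 5.64 TPM. Sfrp2 and Frzb held 80.2% and 82.3% of the level summed over these 4 genes, and the order of the 4 was the same in both libraries.

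Within the Dickkopf family, Dkk3 was at 23.7 and 26.9 TPM. Dkk3 is a divergent member not known as a direct blocker of Lrp co-receptors. Dkk1, the Lrp blocker that is also a Wnt target, was at 0.87 and 0.86 TPM, and Dkk2 at 2.36 and 1.51 TPM. Dkk3 stood above Dkk1 by a log2 ratio of 4.87 ± 0.14 (SD, n = 2). Wif1, a Wnt-binding inhibitor also made by cartilage, was at 3.57 and 6.11 TPM. It was lower in replicate 1, as were 7 of 7 cartilage markers, which summed to 80.1 TPM in replicate 1 and 124 TPM in replicate 2. Their highest genes were Col2a1 at 27.7 and 51.7 TPM, Sox9 at 28.8 and 31.8 TPM, and Cnmd at 13.1 and 17.9 TPM, and Acan, a defining gene, was at 0.83 and 1.56 TPM (named after its values were seen). The part of cartilage in the Wif1 level was not tested.

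All 11 intracellular genes were detected. Ctnnb1, which encodes β-catenin, also a part of adherens junctions, was the highest member at 221 and 189 TPM. Gsk3b, the kinase that marks β-catenin for destruction, was at 106 and 118 TPM, by its mean above 90.0% of detected genes. Apc, a scaffold of the destruction complex and a microtubule-binding protein, was at 49.99 and 56.3 TPM. Gsk3b and Apc belong to the destruction complex together with the Axins, and the RNA of each far exceeded that of either Axin gene.

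Axin1, the constitutive scaffold, was at 6.39 and 10.8 TPM. Axin2, the inducible scaffold and a general Wnt target, was at 4.99 and 5.12 TPM. Axin2 was below Axin1 in both pools, by a log2 ratio of -0.72 ± 0.51 (SD, n = 2), and the spread came from Axin1. Gsk3a, the relative of Gsk3b, was at 12.7 and 13.0 TPM, and Gsk3b exceeded it by 3.12 ± 0.09 on the log2 scale (SD, n = 2). Apc2, the neuronal relative of Apc, was at 99.7 and 117 TPM, and Apc was below it by -1.02 ± 0.04 (log2 ratio, SD, n = 2).

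Dishevelled proteins relay the Frizzled signal in both branches. Dvl3 was at 28.4 and 25.1 TPM and Dvl2 at 20.5 and 18.5 TPM, whereas Dvl1 was at 9.45 and 23.4 TPM. Dvl3 was highest in both libraries. Over all transcripts, Dvl1 ranked below Dvl2 in replicate 1 and above it in replicate 2. In transcripts with a coding sequence, Dvl1 was below Dvl2 in both libraries, at 2.31 and 8.02 TPM against 14.8 and 12.8 TPM.

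Of the Tcf and Lef factors, which carry β-catenin to DNA, Tcf7l2 was at 18.1 and 10.7 TPM. Tcf7l1, mostly a repressor, was at 8.09 and 5.72 TPM, and Tcf7l2 stood above it by a log2 ratio of 1.03 ± 0.18 (SD, n = 2). Lef1 was at 24.6 and 5.76 TPM. Tcf7, the fourth factor of the family and abundant in T cells, was at 41.8 and 4.05 TPM. Replicate 1 was higher for all 4 factors, most of all for Tcf7 and Lef1.

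Of the planar polarity genes, the 6 detected ones differed between the libraries by log2 ratios of -0.22 to 0.26. Vangl2, a core polarity protein whose loss leaves the neural tube open, was at 30.4 and 32.6 TPM, and Vangl1 at 8.36 and 6.96 TPM. Vangl2 exceeded Vangl1 by 2.04 ± 0.26 on the log2 scale (SD, n = 2). The polarity cadherin Celsr2 was at 28.8 and 29.1 TPM, and Celsr3, which acts with Fzd3 in axon tract formation, at 9.42 and 11.1 TPM. Celsr1, the epithelial cadherin of neural tube closure, was at 1.17 and 0.67 TPM and so fell short of 1 TPM in replicate 2. Prickle1 was at 22.6 and 18.7 TPM and Prickle2 at 12.9 and 13.9 TPM. Celsr1 was the only polarity member below 1 TPM in a library.

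Exon bases were shared with another annotated gene by 15 members, of which 3 had a partner at 1 TPM or more in both libraries. Ctnnb1 shares bases with Ulk4 (3.06 and 3.16 TPM), Dvl2 with Acadvl (54.0 and 50.4 TPM), and Sfrp2 with Gm26771 (7.72 and 7.93 TPM). Whether counting used strand is not stated, so reads in these bases may belong to either gene. Lef1 also overlaps the annotated antisense gene Gm43352, which was not analysed here.

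**Figure D2:**
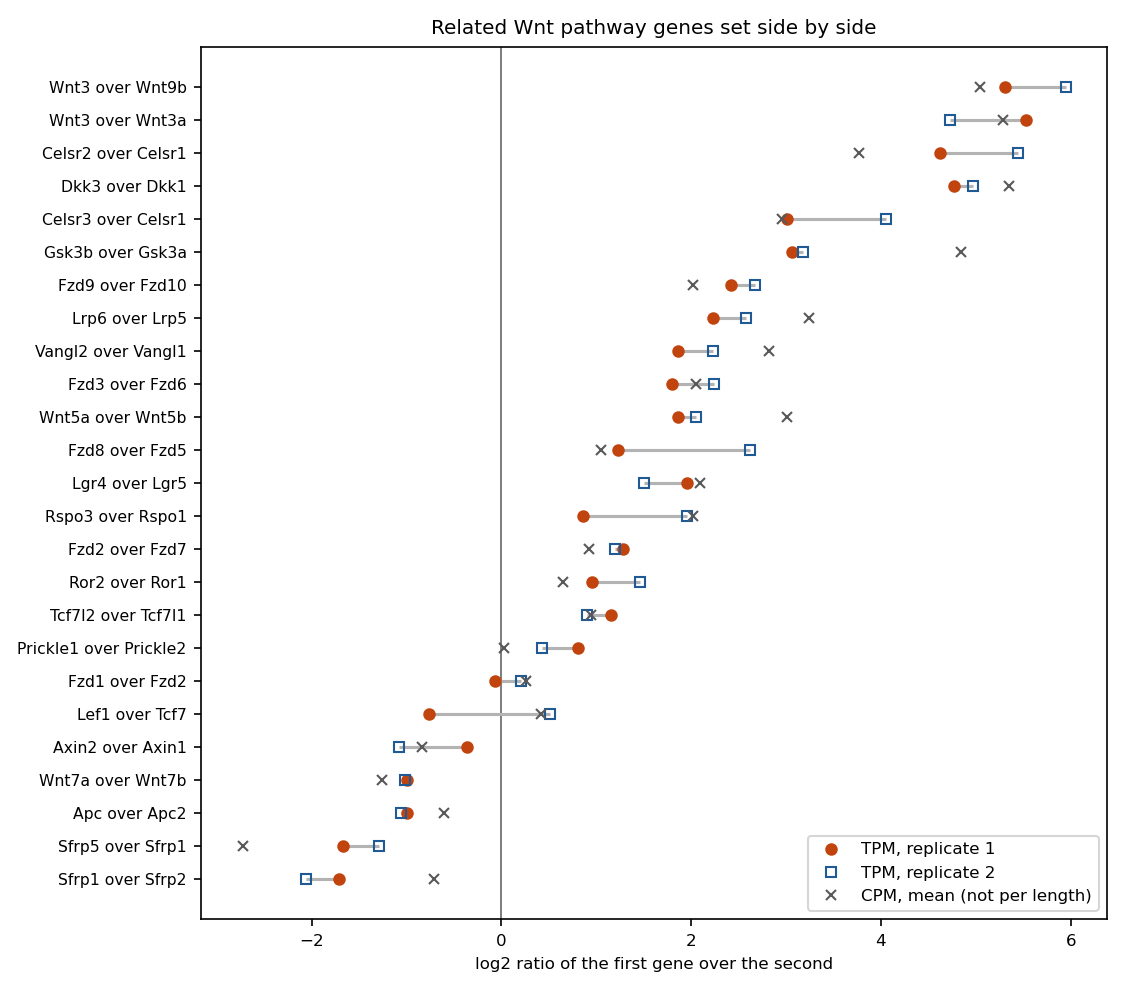
log2 ratio of the first gene over the second in each of 25 pairs, in replicate 1 (filled circles) and replicate 2 (open squares) on the TPM scale, with the mean on the CPM scale, which is not corrected for length, as a cross. Among the 25, the libraries fall on opposite sides of 0 for Lef1 over Tcf7 (-0.76 and 0.51) and Fzd1 over Fzd2 (-0.070 and 0.20) only.

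A further list of 69 pathway genes, compiled by function and not by level, gave 55 detected (79.7%). All 4 genes for ligand secretion and turnover were detected. Wls, the carrier that takes Wnts to the cell surface, was at 50.8 and 40.2 TPM, Porcn, the enzyme that attaches their lipid, at 34.4 and 40.0 TPM, and Tmed5, a cargo receptor of the early secretory route, at 36.7 and 21.8 TPM. Notum, which removes the lipid, was at 5.01 and 5.79 TPM. Wls, Porcn and Tmed5 were thus above every ligand in both libraries.

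Of 8 other ligands, Ndp (norrin, a non-Wnt ligand of Fzd4) was the only gene detected, at 6.79 and 8.56 TPM. Wnt2 was at 0.97 and 1.16 TPM and Wnt16 at 0.44 and 0.73 TPM, and Wnt8a, at 0.05 TPM in both, was the lowest. Among receptor turnover genes and co-receptors, 8 of 10 were detected. Tspan12, the partner of Fzd4 in norrin signalling, was at 63.2 and 65.2 TPM, Ptk7, a polarity co-receptor, at 33.8 and 23.5 TPM, and Kremen1 at 8.40 and 4.69 TPM. Reck, at 6.80 and 5.06 TPM, and Adgra2, at 2.67 and 1.76 TPM, which together let Wnt7a and Wnt7b act on brain vessels, were named after their values were seen. Endothelial markers, detected in 8 of 8 cases, summed to 274 and 239 TPM.

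Other secreted inhibitors were detected in 5 of 7 cases, with Sostdc1 at 11.7 and 12.7 TPM, Dkkl1 at 12.2 and 11.3 TPM, and Draxin, an axon guidance protein that also blocks Wnt signalling, at 6.02 and 8.53 TPM. Dkk4 was listed at 0 in both libraries, and Sost, made by bone cells, was at 0.02 and 0.19 TPM. All 23 other intracellular genes were detected, the highest being the kinases Csnk1a1 at 209 and 213 TPM and Csnk1e at 141 and 173 TPM. Of 9 other polarity genes, 8 were detected, led by Daam1 at 15.6 and 16.9 TPM, Fuz at 13.3 and 12.4 TPM, and Scrib at 10.5 and 11.6 TPM. The lowest were Prickle4 at 2.18 and 0.87 TPM and Intu at 2.26 and 1.73 TPM.

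Genes known as targets of β-catenin were detected in 6 of 8 cases. Myc was at 74.97 and 53.6 TPM, Ccnd1 at 22.0 and 15.4 TPM, and Tnfrsf19 at 17.6 and 16.9 TPM. Cdx2, a gut transcription factor, was at 2.59 TPM and listed at 0, and T, a notochord and mesoderm factor, was at 0.25 and 0.28 TPM. The feedback genes Nkd1, at 17.1 and 16.8 TPM, and Sp5, at 1.28 and 1.70 TPM, were named after their values were seen. By the rule given further on for genes apart between the libraries, only 5 of these 8 targets reached the minimum mean of 5 TPM. None of the 5 was apart, against 3.48% of all genes tested, so few calls could occur among so few genes.

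The libraries differed little for most members. Over the 50 detected members the median log2 ratio of TPM + 1, replicate 1 over replicate 2, was 0.11, and over all 15505 detected genes it was 0.01. The median absolute log2 ratio was 0.22 for members and 0.16 for all detected genes. It was within 0.5 in either direction for 44 of the 50 (88.0%), against 88.6% of all detected genes.

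Genes were called apart between the libraries at a 2-fold ratio of TPM + 1, a mean of 5 TPM and 50 summed counts. Of the 34 members that met the level and count minimum, 2 were apart, against 3.48% of the 11969 genes tested. Lef1 was higher in replicate 1, as were 3.34% of all genes tested, and Dvl1 was lower in replicate 1, as were 0.134%. Such calls compare these libraries and carry no test.

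**Figure D3:**
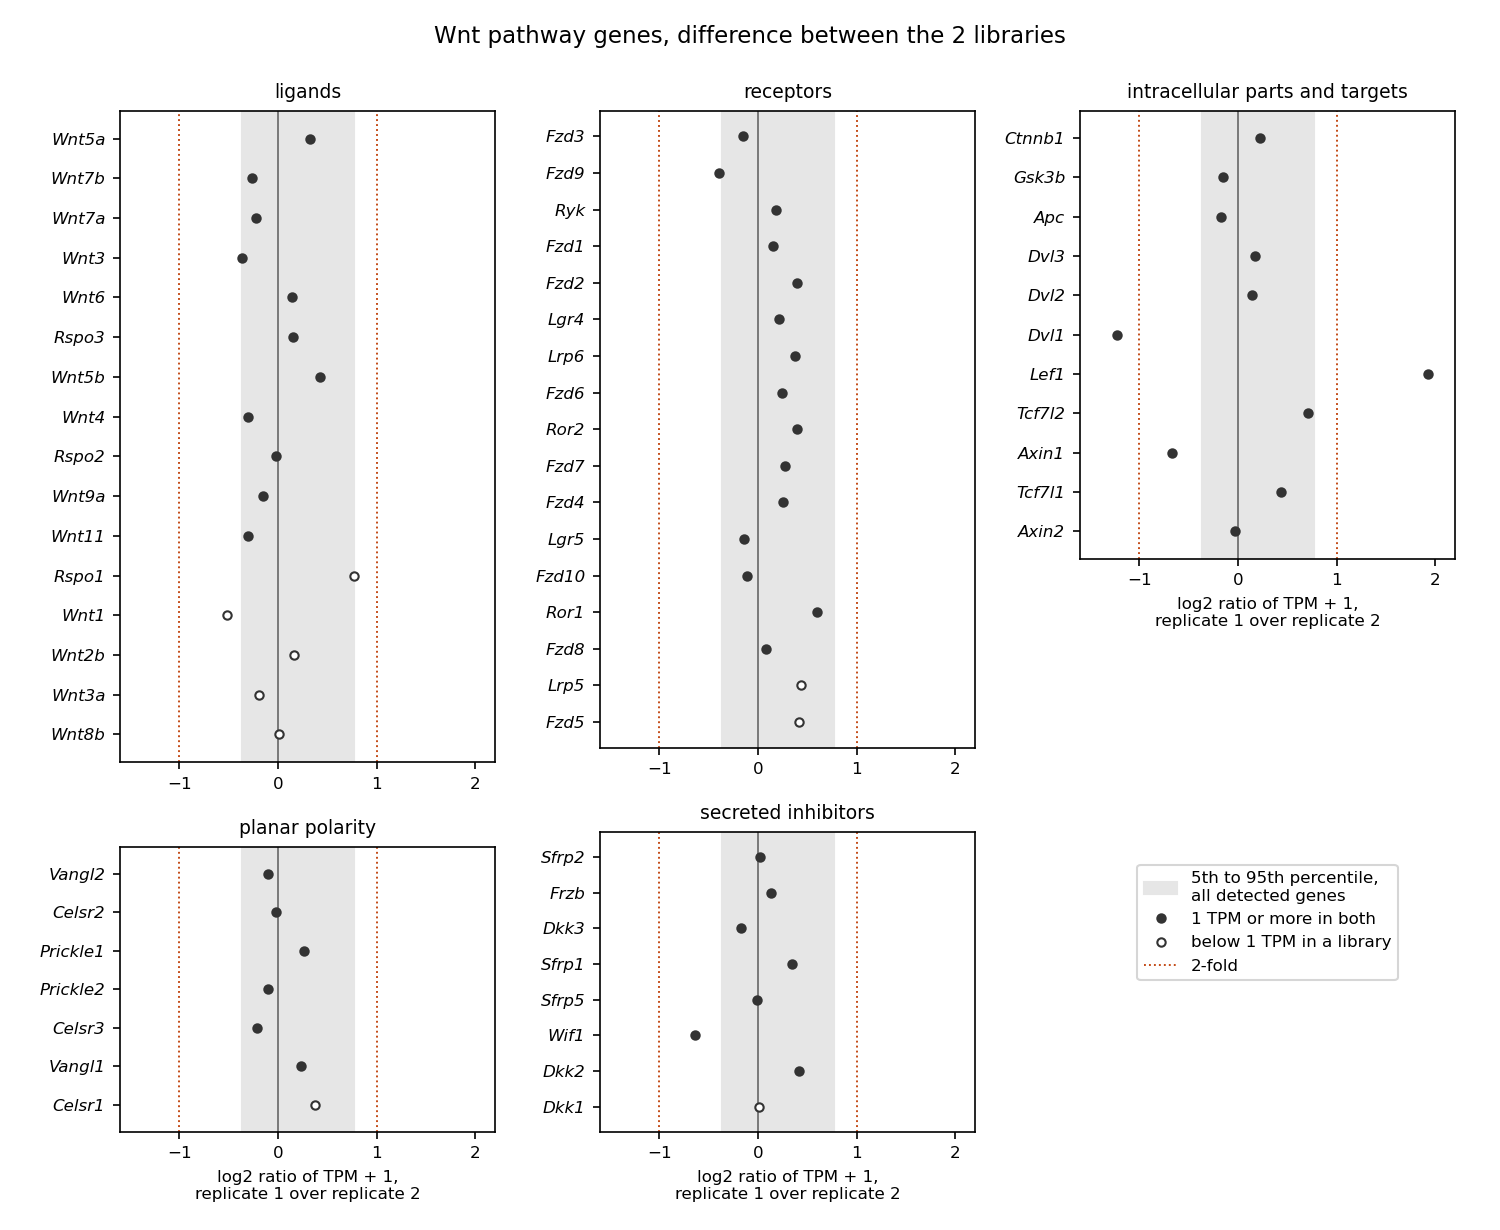
log2 ratio of TPM + 1, replicate 1 over replicate 2, for each member in the order of the plot of levels, with filled points for members detected in both libraries and open points for the rest. The grey band spans the 5th to 95th percentile of all detected genes (-0.36 to 0.77), dotted lines mark 2-fold, and Lef1 (1.92) and Dvl1 (-1.22) lie outside those lines.

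Lef1 (chr3:131110471-131224356, plus strand) had 1780 expected counts in replicate 1 and 490 in replicate 2, a log2 ratio of 1.92. Of the 46 genes on the further list with a mean of 5 TPM or more, Tcf7 and Dact2 were apart, at log2 ratios of 3.08 and 1.19. Over all genes tested, 3.48% were apart. Dact2, an inhibitor of signalling through Dishevelled, was at 7.52 and 2.73 TPM. Kremen2 (5.72 and 1.10 TPM, named after its values were seen), Rnf43 (2.02 and 0.43 TPM) and Cdx2 also passed 2-fold but had means under 5 TPM. With no minimum level, 2.95% of all 43346 genes passed 2-fold. All 5 were higher in replicate 1, as were 400 of the 416 genes apart among all genes tested. Lef1 and Tcf7 are the Tcf family members that developing T cells use. All 10 thymocyte markers, a list chosen with earlier results known, were higher in replicate 1, and 6 were apart. Among them were the T cell receptor parts Cd3g at 93.0 TPM and listed at 0, Cd3e at 39.9 and 0.06 TPM, and Cd3d at 28.4 and 0.06 TPM. Ptcra was at 35.8 and 0.16 TPM, Rag2 at 10.7 and 0.02 TPM, and Lck at 81.5 and 9.17 TPM. Not apart were Rag1 at 9.52 and 0.03 TPM and Cd8b1 at 1.54 and 0.03 TPM. Nor were Cd4, at 0.50 and 0.14 TPM, and Cd8a, at 0.48 TPM and listed at 0. These genes had means under 5 TPM and were named after their values were seen. In replicate 2, Lef1 was at 5.76 TPM and Tcf7 at 4.05 TPM. The part of thymocyte RNA in the Lef1 and Tcf7 levels of replicate 1 was not tested.

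The transcripts of Lef1 differed as well. Lef1-201, which includes the alternative exon, made up 81.3% of Lef1 TPM in replicate 1 and 22.1% in replicate 2, at 20.0 and 1.27 TPM. The deposited bounds around these levels did not overlap, at 16.0 to 20.7 TPM in replicate 1 and 0.377 to 2.26 TPM in replicate 2. Lef1-204, which skips the exon and ends in the other last coding exon, was at 1.85 and 2.64 TPM, and Lef1-202, which also skips it, at 0.71 and 1.41 TPM.

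Summed by the exon, including transcripts were at 20.0 and 1.27 TPM and skipping transcripts at 2.56 and 4.05 TPM. Inclusion among the transcripts that span the exon was 88.7% in replicate 1 and 23.9% in replicate 2. The 2 transcripts that do not span the exon summed to 2.04 and 0.42 TPM, mostly Lef1-206 at 1.93 and 0.38 TPM, whose bounds did not overlap. Most of the higher Lef1 level in replicate 1 thus lay in the including form, and the skipping forms were slightly lower there, with overlapping bounds for each. The shares are the authors' model estimates, and in replicate 2 they rest on 490 counts.

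Lef1 was also alone in the size of this shift. Of the 34 members at 5 TPM or more on average, 27 had several transcripts, and the largest move of a transcript share between the libraries had a median of 6.96 percentage points over these 27. Lef1, at 59.2 points, was the only one of them with a move of over 20 points. The leading transcript was the same in both libraries for 23 of the 27 and differed for Celsr2, Lef1, Prickle2 and Wnt5a.

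Dvl1 (chr4:155847402-155859303, plus strand) had 671 expected counts in replicate 1 and 1998 in replicate 2, a log2 ratio of -1.22. Most Dvl1 RNA was assigned to transcripts annotated as retaining an intron, 75.6% in replicate 1 and 63.7% in replicate 2. The retained-intron transcript Dvl1-206 was at 3.83 and 11.7 TPM, and the coding transcript Dvl1-201 at 2.31 and 8.02 TPM. Both were lower in replicate 1, and their deposited bounds did not overlap between the libraries. Dvl1-203, another retained-intron form, was at 1.46 and 0.24 TPM. Neuronal and cartilage markers were also lower in replicate 1 (8 of 8 and 7 of 7), at median log2 ratios of -0.28 and -0.53 over those detected. So were 7 of 8 roof plate markers and 6 of 8 markers of progenitors and radial glia. The part of any of these in the Dvl1 level was not tested.

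**Figure D4:**
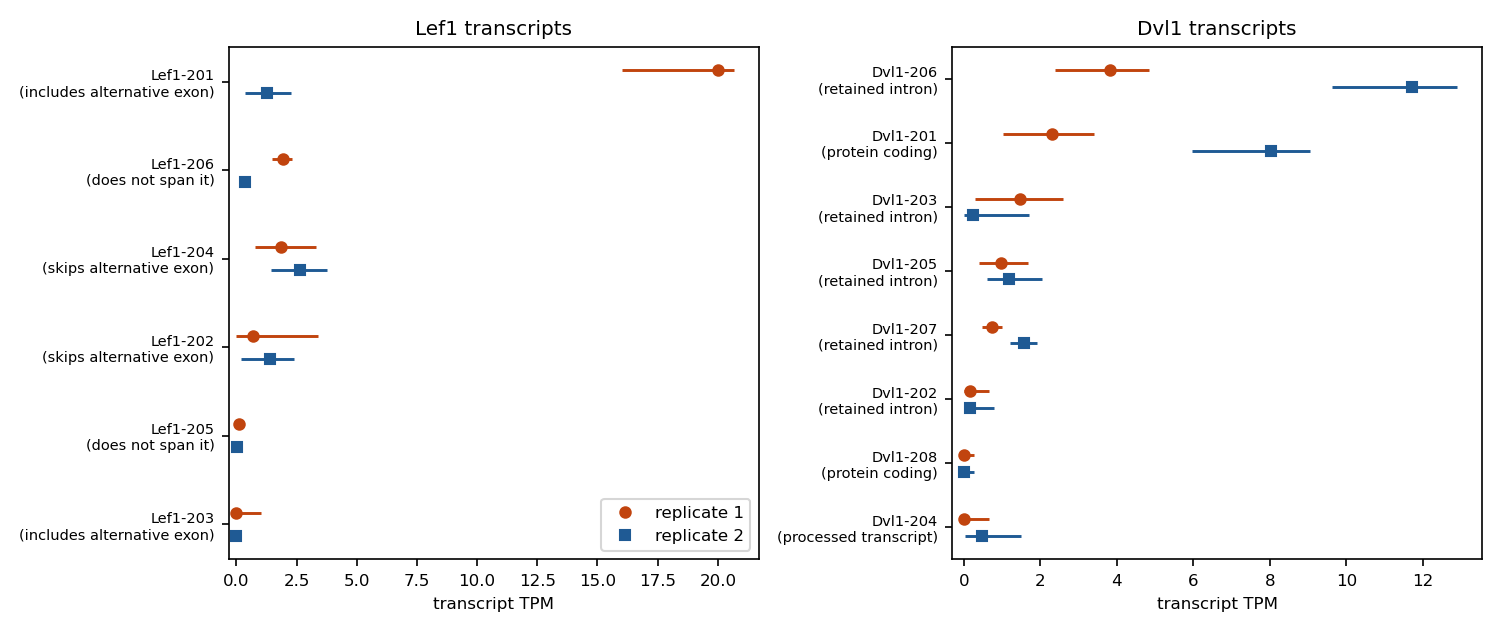
TPM of each Lef1 transcript (left) and Dvl1 transcript (right) in replicate 1 (circles) and replicate 2 (squares), with horizontal lines for the deposited bounds and the exon or annotation class under each name. Lef1-201 stands at 20.0 TPM in replicate 1 and 1.27 TPM in replicate 2, and Dvl1-206 and Dvl1-201 are lower in replicate 1.

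Other members at 5 TPM or more moved less than Lef1. Their largest moves of a share were 14.5 points in Dvl1, 13.8 points in Fzd6, 13.7 points in Vangl1 and 13.0 points in Celsr2. Wnt5a-201 took 43.7% and 39.1% of Wnt5a TPM and Wnt5a-202 took 42.3% and 48.3%, so the authors' model gave a like share to the transcript of each start site shown above. The deposited bounds of the pair overlapped within each library, so they could not be ordered. Wnt7b-201 took 67.4% and 66.0%. Ctnnb1-214 led the 14 Ctnnb1 transcripts with 53.6% and 59.9%, and Gsk3b-201 took 84.4% and 81.8%. Tcf7l2 had the most transcripts, 22, and its leading form Tcf7l2-209 took 35.9% and 37.3%. Tcf7l2 also had 36.3% and 31.5% of its TPM in retained-intron transcripts, and Dvl2 had 28.1% and 31.0%. Retained-intron shares were below those of Dvl1 in both.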

How the data were processed

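Per the labels' protocols, total RNA of the 2 pools was size-selected and extracted by mirVana, library input was 10 ng with spike-in RNAs, and the SMARTer manual linked is for low input. The authors deposited gene and transcript tables on mm10 with GENCODE M4, made from transcriptome alignments, per notes deposited with each sample. Not given in the sources used here were aligner, quantifier, versions and strand. The deposited tables hold, per the file headers, expected counts (reads shared among transcripts by a model), TPM over all entries including spike-ins, and the percent of gene TPM in each transcript. The deposited bounds of TPM, read here as a signal on that scale, cover estimation error only.

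Of 69691 entries, 43346 were genes, 96 spike-ins, 26248 named by a number alone and 1 another control, and only genes were analysed. Spike-ins took 2.12% of expected counts in replicate 1 and 2.28% in replicate 2. Symbols, coordinates and transcript exons came from GENCODE M21 (GRCm38, the same assembly as mm10) (42462 gene identifiers matched, 884 did not), and the printed sequences from its transcripts. The lengths of all 6 Lef1 transcripts were equal in both releases. Mouse proteins were not used here, so no protein identities were computed.

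Levels were read per library, with mean and SD (n = 2), which measure only these pools. Detection was 1 TPM in both libraries. Log2 ratios used TPM + 1 between libraries and TPM with no pseudocount between genes. No test was possible with 1 group. Of these steps, only the rule for genes apart was tested on simulated data, with changes larger than its cutoff. Alternatives were thresholds, pseudocounts, TMM-normalized CPM (edgeR 4.0.16) and size factors (DESeq2 1.42.0) from rounded counts in R 4.3.3, TPM rescaled without spike-ins, posterior mean TPM, and each library alone. Python 3.11.15, numpy 2.4.6, pandas 2.3.3 and matplotlib 3.10.9 did the rest. The members and lists were chosen with earlier results of these data known. Named outside the members were the 3 highest and 2 lowest genes of each further list, genes of pairs, and, of marker lists, the 3 highest and those apart; not all of these are printed, and others are marked where they appear.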

Additional observations from a re-analysis of the deposited data

How the results depend on the processing

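Counts of detected members kept within 1.5 times of 50 except at a threshold of 5 TPM, which left 33. At 1.5-fold, 4 members were apart (Axin1, Dvl1, Lef1 and Tcf7l2), with 7.89% of all genes, and under the 6 other settings Lef1 and Dvl1 were the 2 called. Scaling TPM without spike-ins raised the summed levels to 72.5 TPM for ligands, 104 TPM for receptors, 155 TPM for inhibitors, 510.0 TPM for intracellular genes and 119.5 TPM for polarity genes, and posterior mean TPM put inhibitors at 145 TPM. Dividing by no length turned Lef1 over Tcf7 to a log2 ratio of 0.41 (CPM), against -0.13 in TPM, and brought Prickle1 over Prickle2 to 0.026, against 0.62. With a single library, Lef1 over Tcf7 ranged from -0.76 to 0.51 and Fzd1 over Fzd2 from -0.070 to 0.20. The other 23 pairs kept their direction under these settings, but log2 ratios moved by over 1 SD in 14 of 25 pairs with 1 TPM added and 16 in CPM besides Lef1 over Tcf7. Adding 1 TPM shrank ratios to genes near 0, to 2.63 for Wnt3 over Wnt3a, 2.71 for Wnt3 over Wnt9b and 0.76 for Fzd8 over Fzd5. Leaving out a library gives no value for differences between the libraries. No paired analysis was possible because there is 1 group and nothing to pair. Genes near 1 TPM such as Wnt1, Rspo1, Lrp5, Ror1 and Celsr1 are detected or not by small margins, transcript shares of low genes rest on few counts, and SDs over 2 pools are imprecise.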

Other observations

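Promoter windows of 300 bases (250 before to 50 after the start) from RefSeq on GRCm38.p6 were found for 42 of the 59 members, 54 windows in all. The Tcf and Lef core CTTTGA, searched on both strands, was in 9 of the 54 (16.7%), against 16.0% of 32851 mouse windows. The core CTTTGT was in 11 (20.4%), against 18.7%. The median GC content of the members' windows was 67.5%, against 52.7% over all windows.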
